A study of Mus musculus with 12 samples.

Results

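The 10 marker genes of macrophages described here were followed in libraries sorted as airway eosinophils: Mrc1, Marco, Pparg, Lyz2, Lpl, Plet1, C1qa, C1qb, C1qc and Apoe. They were taken by symbol, and all 10 of 10 were found among the 39666 genes of the deposited count table. Cells came from lung lavage of wild-type C57BL/6 mice, 8 to 12 weeks old, pooled before sorting. All mice had been sensitized with 20 µg ovalbumin in 4 mg alum on days 0 and 7 and had breathed nebulized 1% ovalbumin for 40 minutes a day on each of days 16 to 18, with lavage at harvest on day 19. There was no untreated group. The eosinophil gate took granular (side-scatter-high) leukocytes with CD45, CD11b and Siglec-F whose CD11c and Ly6G were low or intermediate. Each lavage was then sorted into a fraction with TREM-1, an activating receptor of myeloid cells, at the surface (TREM-1+) and a fraction without it (TREM-1-), so that 6 lavages gave 12 libraries. The labels do not give the number of mice in a pool, nor say that the 6 pools came from separate mice, so that every p-value refers only to the spread among these pools.

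Resident macrophages of the airspace carry Siglec-F, as eosinophils do, but also abundant CD11c, which eosinophils carry at lower levels. They are known for a programme of lipid handling and scavenging directed by the nuclear receptor PPAR-gamma (Pparg). Macrophages of the lung interstitium and those that derive from monocytes are known for C1q, the recognition part of the classical complement pathway, and for apolipoprotein E (Apoe). In bulk libraries such as these, fewer macrophages in a gate and less of the transcript in each cell cannot be told apart.

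Mrc1, Lyz2 and Plet1 were the markers that shared the widest range between lavages and were higher in TREM-1+ in every pair. The 250 bases before their starts are therefore given here 5′ to 3′, from RefSeq on GRCm38.p6, at chr2:14229164-14229413 (plus strand), chr10:117282273-117282522 (minus strand) and chr9:50494275-50494524 (plus strand). Capitals mark matches, on either strand, to 6 motifs searched.
Mrc1: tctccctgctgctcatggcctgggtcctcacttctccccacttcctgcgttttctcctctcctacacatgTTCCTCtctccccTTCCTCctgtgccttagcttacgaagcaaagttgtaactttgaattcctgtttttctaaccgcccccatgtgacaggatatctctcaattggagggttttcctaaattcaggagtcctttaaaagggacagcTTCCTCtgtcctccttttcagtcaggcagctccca
Lyz2: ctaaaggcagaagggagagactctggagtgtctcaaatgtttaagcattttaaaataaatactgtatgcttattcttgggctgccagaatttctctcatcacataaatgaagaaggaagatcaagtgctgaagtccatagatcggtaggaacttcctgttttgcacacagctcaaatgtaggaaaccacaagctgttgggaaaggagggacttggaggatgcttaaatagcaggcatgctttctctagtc
Plet1: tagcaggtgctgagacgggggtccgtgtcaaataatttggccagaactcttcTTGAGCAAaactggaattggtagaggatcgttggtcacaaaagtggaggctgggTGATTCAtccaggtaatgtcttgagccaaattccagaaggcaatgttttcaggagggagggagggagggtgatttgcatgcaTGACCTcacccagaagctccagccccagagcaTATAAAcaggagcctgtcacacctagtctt
The motifs were GAGGAA of the PU.1 type, TGANTCA of AP-1, TTGCNNAA of the C/EBP type, AGGTCA of nuclear receptors, TGCTGAC of MAF, and the TATA box TATAAA. The Mrc1 window held GAGGAA 3 times, beginning 180, 167 and 35 bases before the start, all on the opposite strand. In the Plet1 window TTGCNNAA lay at 198, TGANTCA at 144, AGGTCA at 62 and TATAAA at 30 bases before the start. The Lyz2 window matched none of these letters. Of 32851 windows of this length in the table, 23.3% held GAGGAA, 6.75% TGANTCA, 9.56% TTGCNNAA, 14% AGGTCA, 3.81% TGCTGAC and 12.4% TATAAA. Of the 10 markers, 8 were found in that table, and C1qa and Lpl were not. These matches describe letters and were not tested against the counts.

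Total counts ran from 16513387 to 21234053 in the TREM-1- libraries and from 8626701 to 19274912 in the TREM-1+ libraries. Levels are CPM, counts divided by library size after TMM scaling, and a gene was called at an edgeR adjusted p below 0.05 over all 18302 genes that passed a filter on low counts. Of these, 9.82% were called, 3.1% higher and 6.72% lower in TREM-1+. Scaling by library totals alone moved the median of all genes from 0.00 to 0.13 on the log2 scale and the split from 568 higher and 1229 lower to 1880 higher and 376 lower, so that changes are relative to the median gene. Trem1, whose product was sorted, rose in 6 of 6 pairs (log2 fold change 1.62 ± 0.07, SE, adjusted p = 7.36e-15), and this is no finding. Of the eosinophil genes, Ccr3, the eotaxin receptor gene, stood at 985 ± 126 CPM in TREM-1- and at 816 ± 114 CPM in TREM-1+ libraries, and Siglecf at 875 ± 91.8 and 796 ± 64.9 CPM (SD, n = 6). Both were called lower in TREM-1+ (log2 fold change -0.27 and -0.14, edgeR adjusted p = 3.75e-07 and 0.00541). With library totals alone Ccr3 was at -0.15 (adjusted p = 0.0245). The Siglecf change is close in size to the 0.13 by which that scaling moved the median gene, and its call there is not reported here. Siglec-F was part of the gate and is carried by airspace macrophages too, so Siglecf does not separate these cell types. Epx, the eosinophil peroxidase gene, had 40.1 ± 5.06 and 42.3 ± 11.4 CPM and was not called. Of the 12 genes of the eosinophil list 3 were called higher and 6 lower in TREM-1+. The 3 higher were Prg2 (log2 fold change 0.34, edgeR adjusted p = 2.07e-09), Alox15 (0.19, 5.17e-06) and Ear6 (0.14, 0.0471). A first principal component with 28.8% of the variance set the 4 libraries of lavages 1 and 2 apart from the other 8.

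The macrophage markers were rare beside Ccr3 and Siglecf. Their CPM summed to between 12.1 and 79.5 in the TREM-1- libraries and between 20.1 and 115 in the TREM-1+ libraries, and in every lavage the TREM-1+ library had the higher sum. From lavage 1 to lavage 6 the sums were 12.7, 12.1, 31.2, 47.4, 79.5 and 30.9 CPM in TREM-1- and 21.9, 20.1, 68.2, 101.4, 115 and 52.1 CPM in TREM-1+. Lavages 1 and 2 held the least, and lavage 5 the most, in each fraction. Of the 10 markers 6 passed the filter and were tested; Marco, C1qa, C1qb and C1qc did not. Among those 6, Pparg, Lyz2 and Plet1 were called higher, 0 were called lower, and Mrc1, Apoe and Lpl were not called. The share of all tested genes called higher was 3.1%. Mrc1, Pparg, Lyz2 and Plet1 were higher in 6 of 6 pairs, as were 5.08% of all tested genes. The median log2 fold change of the 6 tested markers was 0.93, against 0.00 over all tested genes. For the alternatives given below, the share of all tested genes called higher was 2.83% with DESeq2, 3.05% with limma-voom, 10.3% with library totals, 2.35% with no filter and 0.148% without the lavage block, where 0 of the 6 tested markers were called. It was 2.51%, 2.53%, 2.59%, 2.2%, 2.4% and 2.26% without lavage 1, 2, 3, 4, 5 and 6, 2.29% in lavages 1 and 2 alone, 1.96% in lavages 3 to 6 alone and 1.89% without lavages 3 and 4.

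**Figure D1:**
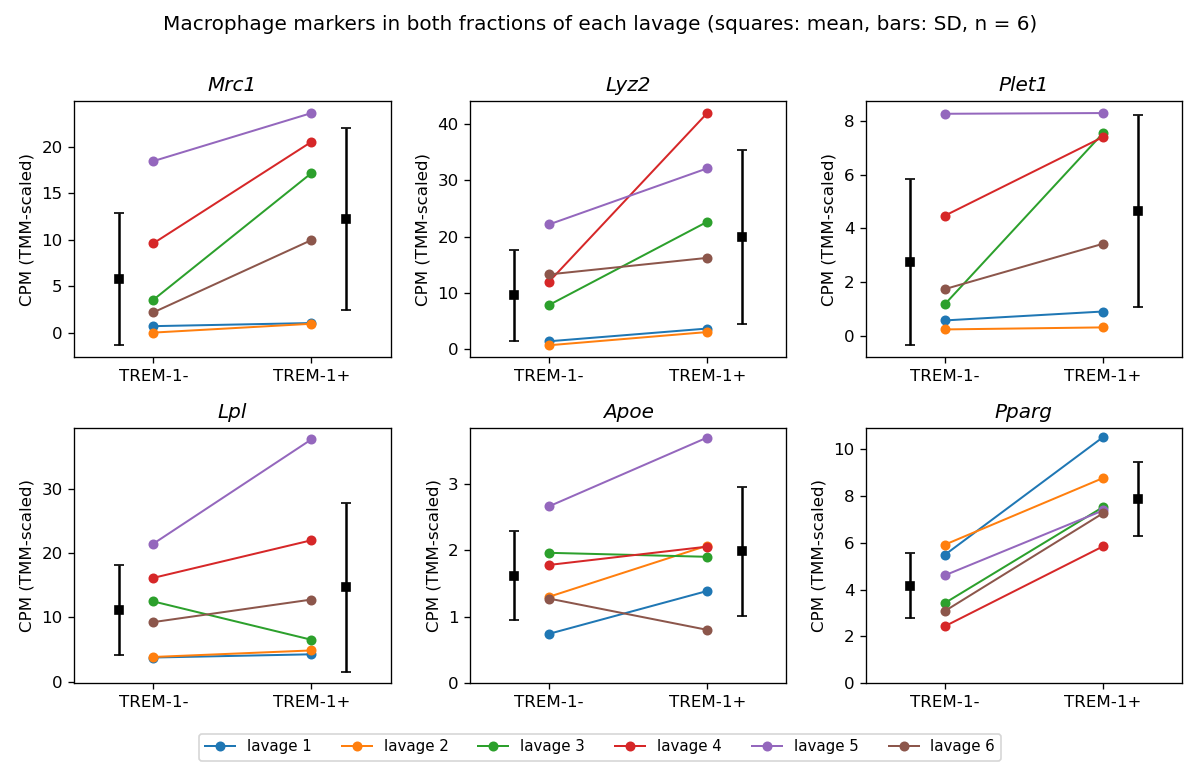
CPM (y axis, linear, a separate scale for each gene) of the 6 tested markers in the TREM-1- and TREM-1+ library (x axis) of each lavage, joined by lavage, with the mean and SD of 6 libraries as black squares and bars. Lavages 1 and 2 lie lowest for Mrc1, Lyz2, Plet1 and Lpl and highest for Pparg.

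Pparg, the nuclear receptor gene of lipid metabolism (NCBI gene 19016), rose in TREM-1+ cells and was higher there in every lavage. From lavage 1 to lavage 6 it measured 5.49, 5.93, 3.43, 2.44, 4.61 and 3.09 CPM in TREM-1- and 10.5, 8.77, 7.53, 5.85, 7.39 and 7.27 CPM in TREM-1+. The fractions overlapped by little: the lowest TREM-1+ value, in lavage 4, lay just under the highest TREM-1- value, in lavage 2. Means were 4.16 ± 1.40 and 7.89 ± 1.59 CPM (SD, n = 6), a log2 fold change of 0.95 ± 0.16 (SE) at an edgeR adjusted p = 5.28e-05. Within single lavages the fold was lowest in lavage 2, at 1.48, and highest in lavage 4, at 2.40. Flipping the signs of the 6 differences in all 64 ways (exact permutation, two-sided) gave p = 0.0312, the smallest possible. Pparg was the one marker whose call held in each set of lavages, 1 and 2 (log2 fold change 0.77, adjusted p = 0.00097) and 3 to 6 (1.06, adjusted p = 0.00278), and without any single lavage.

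Lyz2, which encodes the lysozyme of macrophages and neutrophils (gene 17105), had the highest mean level per transcript length of the markers. It measured 1.43, 0.728, 7.89, 12.0, 22.2 and 13.3 CPM in the TREM-1- libraries of lavages 1 to 6. Their TREM-1+ partners held 3.70, 3.07, 22.7, 42.0, 32.2 and 16.3 CPM. Every pair rose, but the fractions overlapped widely, since the TREM-1+ libraries of lavages 1 and 2 lay below the TREM-1- libraries of lavages 3 to 6. Means were 9.60 ± 8.09 and 20.0 ± 15.5 CPM (SD, n = 6), for a log2 fold change of 1.13 ± 0.22 (SE) at an edgeR adjusted p = 0.0089. The call was lost without lavage 1 (1.11, adjusted p = 0.0788), without lavage 3 (1.02, adjusted p = 0.108) and in lavages 3 to 6 alone (1.01, adjusted p = 0.173). Without lavages 3 and 4 the log2 fold change was 0.75 (adjusted p = 0.0146). Lyz2 has a near-identical neighbour, Lyz1, which held between 1 and 54 counts a library, or 0.685% to 17.6% of the counts of both, and the division of reads shared by the 2 genes is unknown here.

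Mrc1, the mannose receptor gene (CD206, gene 17533), had the largest fitted difference of the tested markers but was not called. From lavage 1 to lavage 6 it measured 0.693, 0, 3.54, 9.61, 18.5 and 2.18 CPM in TREM-1- and 1.03, 0.95, 17.2, 20.5, 23.6 and 9.96 CPM in TREM-1+. All 6 pairs were higher in TREM-1+, while the size varied from 1.28-fold in lavage 5 to 4.85-fold in lavage 3. In lavage 2 the TREM-1- library had 0 counts against 17, which is at least 6.09-fold higher in TREM-1+ when the 0 is set to 3 counts in that library. The fitted difference was 1.40 ± 0.39 on the log2 scale (SE, edgeR adjusted p = 0.0829, unadjusted p = 0.00953), with means of 5.75 ± 7.11 and 12.2 ± 9.81 CPM (SD, n = 6). It was called with DESeq2 (1.65, adjusted p = 0.0134), with limma-voom (1.10, adjusted p = 0.00211), without lavage 2 (1.31, adjusted p = 0.032) and without lavage 5 (1.78, adjusted p = 0.000501). With no filter on low counts it was called as well (1.40, edgeR adjusted p = 3.81e-15), at the size of the main fit. The 6 paired differences had an SD of 1.40 in log2 CPM and a sign-flip permutation p = 0.0312. The no-filter p is therefore not read as a smaller spread among lavages. It was not called with library totals alone (adjusted p = 0.0573), without the block (0.954) or without lavage 1, 3, 4 or 6 (0.168, 0.184, 0.146 and 0.18). Nor was it called in lavages 1 and 2 alone (0.109), in lavages 3 to 6 alone (0.112) or without lavages 3 and 4 (0.41). Over all alternatives the log2 fold change ran from 1.08 to 1.79.

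Plet1, which encodes a surface glycoprotein used as a marker of alveolar macrophages and of some epithelial cells (gene 76509), rose with a small margin. Its TREM-1- libraries had a lowest value of 0.26, a median of 1.48 and a highest value of 8.25 CPM, and its TREM-1+ libraries 0.335, 5.41 and 8.28 CPM. The fractions shared nearly their whole range, and the difference lay within lavages. The fold was 6.29 in lavage 3, from 22 counts to 111, between 1.29 and 1.96 in lavages 1, 2, 4 and 6, and 1.00 in lavage 5. edgeR gave 0.91 ± 0.28 on the log2 scale (SE, adjusted p = 0.0314). Without lavage 3 it was 0.52 (adjusted p = 0.22), and the call was also lost without lavage 1 (adjusted p = 0.0504), lavage 4 (0.0834) or lavage 6 (0.099), within lavages 1 and 2 (0.55, 0.791), within lavages 3 to 6 (0.99, 0.0864), without lavages 3 and 4 (0.45, 0.474) and with limma-voom (0.73, 0.104). The overlapping antisense gene Plet1os had 0 to 4 counts a library.

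Lpl, the lipoprotein lipase gene (gene 16956), was not called and was lower in TREM-1+ in lavage 3. Its TREM-1- libraries ran from 3.76 through a median of 10.9 to 21.4 CPM and its TREM-1+ libraries from 4.26 through 9.64 to 37.6 CPM. It was higher in TREM-1+ in 5 of 6 pairs, by 1.13-fold to 1.76-fold. In lavage 3 it went from 229 counts in TREM-1- to 96 in TREM-1+, a ratio of 0.523, in the same pair in which Mrc1, Pparg, Lyz2, Plet1 and the 3 C1q genes were higher. Apoe went from 36 counts to 28 there, and Marco was at 0 in both fractions. edgeR put the difference at 0.25 ± 0.17 on the log2 scale (SE, adjusted p = 0.48). Without lavage 3 it was 0.49 and called (adjusted p = 0.00454), as it was without lavages 3 and 4 (0.50, adjusted p = 0.015).

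**Figure D2:**
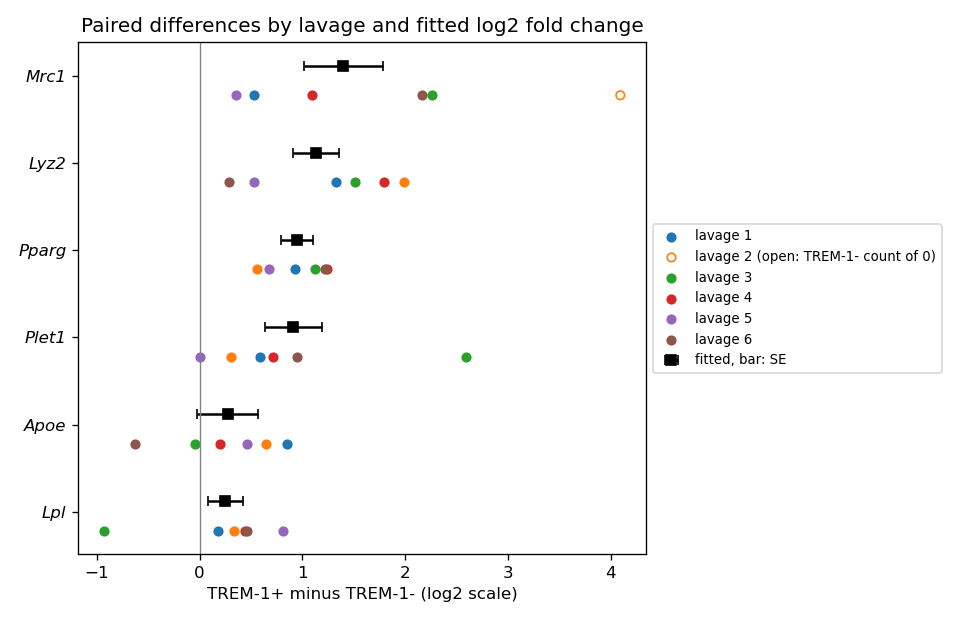
Difference between the TREM-1+ and TREM-1- library of each lavage in log2 CPM with a prior count of 1 (coloured points, open where the TREM-1- count was 0) and the edgeR log2 fold change with its SE (black squares and bars) for the 6 tested markers. The Pparg points lie between 0.56 and 1.24, while the Lpl point of lavage 3 lies at -0.93 and the Plet1 point of that lavage at 2.59.

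Apoe, the apolipoprotein of lipid transport (gene 11816), was low in both fractions and not called. It ran from 0.742 through a median of 1.54 to 2.66 CPM in TREM-1- and from 0.801 through 1.98 to 3.69 CPM in TREM-1+, with lavage 5 highest in each. It was higher in 4 pairs and lower in 2, with a fitted log2 difference of 0.27 ± 0.30 (SE, edgeR adjusted p = 0.713). DESeq2 gave no adjusted p for it.

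The 3 chains of C1q, which assemble into a single protein, had few counts, with a highest level of 3.39 CPM for C1qb in the TREM-1+ library of lavage 3. C1qa (gene 12259) had 23 counts over the 6 TREM-1- libraries and 20 over the TREM-1+ libraries, C1qc (gene 12262) 16 and 33, and C1qb (gene 12260) 19 and 90. In lavages 1 and 2 all 3 genes had 0 counts in each library, except for 2 counts of C1qb in the TREM-1+ library of lavage 1. A count of 0 in those libraries allows up to 0.148 to 0.168 CPM (3 counts, counting error only).

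Of the 3 chains C1qb had the most counts in TREM-1+. Its counts from lavage 1 to lavage 6 were 0, 0, 5, 0, 14 and 0 in TREM-1- and 2, 0, 50, 9, 18 and 11 in TREM-1+. It was higher in TREM-1+ in 5 pairs, with lavage 2 at 0 in both fractions, and lavage 3 alone held 55.6% of its TREM-1+ counts. C1qb did not pass the filter when all lavages were used. With no filter its fitted log2 difference came to 3.02 ± 0.80 (SE, edgeR adjusted p = 0.00393), a size that depends on the prior count where libraries are at 0. As for Mrc1, the no-filter p is not read as a small spread among lavages. The 6 paired differences of C1qb had a sign-flip permutation p = 0.0625. C1qb passed the filter without lavage 1, without lavage 2 and in lavages 3 to 6 alone, and had an adjusted p of 0.0199, 0.0129 and 0.0265 there. In these subsets it passed through its TREM-1+ libraries, where it was high, so these values support nothing further. With no filter C1qa (0.27 ± 1.27, adjusted p = 0.976) and C1qc (1.08 ± 1.23, adjusted p = 0.877) were not called, and whether C1qb differed from its partners was not tested. All 3 chains had counts in both fractions in lavages 3 and 5. In lavage 3 C1qa went from 5 counts in TREM-1- to 8 in TREM-1+, C1qc from 4 to 14 and C1qb from 5 to 50, and in lavage 5 C1qa went from 16 to 9, C1qc from 5 to 3 and C1qb from 14 to 18.

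Marco, a scavenger receptor gene of alveolar macrophages (gene 17167), was barely detected. It had 16 counts in all, 5 in each fraction of lavage 4, 5 in the TREM-1+ library of lavage 5 and 1 in that of lavage 6. The other 8 libraries were at 0, which allows up to 0.148 to 0.204 CPM in them. No difference between the fractions was detectable at this depth.

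**Figure D3:**
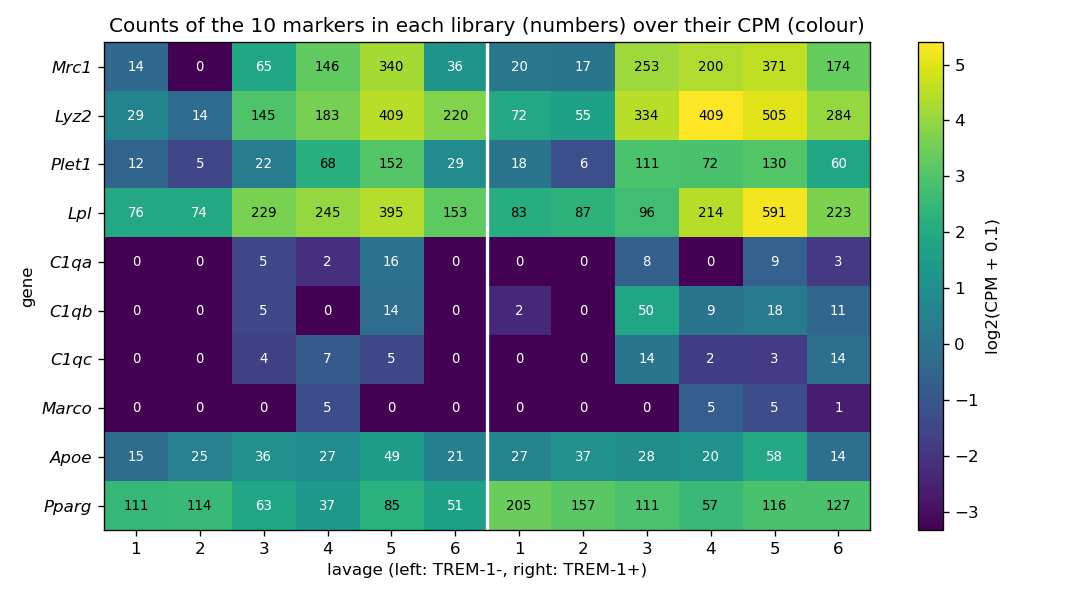
Deposited counts (numbers) of the 10 markers (rows) in the 12 libraries (columns, lavages 1 to 6 of TREM-1- on the left and of TREM-1+ on the right) over log2(CPM + 0.1) as colour. C1qa, C1qc and Marco are at 0 in all 4 libraries of lavages 1 and 2, whereas Pparg has its highest counts there in TREM-1+, at 205 and 157.

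Divided by the length of the longest GENCODE vM21 transcript, Lyz2 had the highest mean, at 7.30 ± 6.14 CPM per kb in TREM-1- and 15.2 ± 11.8 CPM per kb in TREM-1+ (SD, n = 6). In the 4 libraries of lavages 1 and 2 Pparg was above Lyz2 per kb, and in the other 8 Lyz2 was above Pparg. In TREM-1- cells Lyz2 was followed by Lpl (2.71 ± 1.70), Pparg (1.96 ± 0.66), Plet1 (1.63 ± 1.82), Apoe (1.15 ± 0.47) and Mrc1 (1.07 ± 1.32). In TREM-1+ cells the order was Pparg (3.71 ± 0.75), Lpl (3.56 ± 3.18), Plet1 (2.75 ± 2.10), Mrc1 (2.27 ± 1.83) and Apoe (1.41 ± 0.69). Within these 6 markers and their SDs the neighbours overlapped, and Plet1 over Mrc1 in TREM-1+ was the sole pair of neighbours with the same order in 6 of 6 libraries. C1qb stood at 0.949 ± 1.14 CPM per kb in TREM-1+ cells, and C1qa, C1qc and Marco lay at 0.298 CPM per kb or less in each fraction.

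The markers fell into patterns over the lavages that were not the same. Mrc1, Lyz2, Lpl and Plet1 were lower in lavages 1 and 2 than in every one of lavages 3 to 6, in both fractions. Of all tested genes, 8.73% had that arrangement. Mrc1 had at most 1.03 CPM in the libraries of lavages 1 and 2 and at least 2.18 CPM in the others. Mrc1 kept a single order in both fractions, namely lavage 5, 4, 3, 6, 1 and 2 from high to low. Pparg had the opposite arrangement: lavages 1 and 2 were above lavages 3 to 6 in both fractions, which 11.4% of tested genes shared. Apoe had neither. Because the lavages fell into 2 sets of 2 and 4, no correlation between markers over lavages is given.

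Ratios of counts within a library differed in their spread, also among the markers that shared an arrangement over lavages. Plet1 counts per Mrc1 count ran from 0.345 to 0.9 over the TREM-1+ libraries (median 0.356), and Mrc1 counts per Lyz2 count from 0.278 to 0.757 (median 0.551). Pparg counts per Mrc1 count ran more widely, from 0.285 in lavage 4 to 10.25 in lavage 1. Lpl counts per Mrc1 count also ran widely, from 0.379 in lavage 3 to 5.12 in lavage 2, with 4.15 in lavage 1. In TREM-1- libraries with any Mrc1 count the ranges were 0.338 to 0.857 for Plet1, 0.25 to 7.93 for Pparg and 1.16 to 5.43 for Lpl. Mrc1 counts per Lyz2 count ran from 0 in lavage 2 to 0.831 in lavage 5 over the TREM-1- libraries (median 0.466).

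Other genes of the alveolar macrophage list, 20 genes not among the 10 markers, were partly absent and partly at the level of abundant eosinophil genes. Of the 20, 13 were tested, 5 were called higher and 1 lower, with a median log2 fold change of 0.51. Fabp4, the fatty acid binding protein gene that defines alveolar macrophages, had 24 counts in all and was at 0 in 6 libraries, and Fabp1 had 1 count in all. The carbonic anhydrase Car4 rose by 0.66 ± 0.03 on the log2 scale (SE), with means of 201.1 ± 44.3 and 318 ± 71.5 CPM (SD, n = 6). The arginine transporter Slc7a2 rose by 1.08 ± 0.13 (8.37 ± 5.45 and 18.9 ± 13.3 CPM), a call lost in lavages 1 and 2 alone (0.53, adjusted p = 0.302), and the adhesion receptor Cd2 by 1.16 ± 0.25 (1.95 ± 1.57 and 4.37 ± 3.49 CPM). Perp fell by 0.30 on the log2 scale, though it was not called with library totals alone (-0.17, adjusted p = 0.154) or within lavages 1 and 2 (-0.23, adjusted p = 0.085). Il1rn, the interleukin-1 receptor antagonist gene, stood at 2153 ± 409 CPM in TREM-1- libraries and at 2124 ± 359 CPM in their partners (SD, n = 6) and was not called. The list summed to between 3382 and 4497 CPM in TREM-1- and between 3392 and 4489 CPM in TREM-1+ libraries and was higher in TREM-1+ in 4 of 6 pairs. The 5 genes above 100 CPM made up nearly all of that, and the other 15 summed to between 48.8 and 100.9 CPM in TREM-1- and between 43.6 and 124 CPM in TREM-1+ libraries, a split chosen after the values were seen.

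Of 20 genes of interstitial and monocyte-derived macrophages, 19 were in the table, 10 were tested, 1 was called higher and 0 lower (median log2 fold change 0.27). Folr2 had 8 counts in all and Pf4 14. Spp1, the osteopontin gene, had the highest mean of the list, 5.85 ± 6.66 and 11.2 ± 12.4 CPM, and was not called (0.84, adjusted p = 0.27), though it was with limma-voom (0.97, adjusted p = 0.00532) and with no filter (0.84, adjusted p = 1.4e-05). The list summed to between 15.1 and 49.6 CPM in TREM-1- and between 15.3 and 68.8 CPM in TREM-1+ libraries.

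Genes that macrophages share with other myeloid cells moved in both directions. Of 18 pan-macrophage and lysosome genes, all tested, 4 were called higher and 6 lower, with a median log2 fold change of -0.04. The cathepsin gene Ctss rose by 0.48 ± 0.08, the receptor kinase gene Axl by 1.03 ± 0.22 and the endosomal glycoprotein gene Cd68 by 0.64 ± 0.15 on the log2 scale (SE), while another cathepsin gene, Ctsd, fell by 0.32, Cd81 fell by 0.52 and Tyrobp fell by 0.23. Cd68 was low, with means of 5.11 ± 1.90 and 8.16 ± 3.55 CPM (SD, n = 6). Axl was not called with limma-voom (0.70, adjusted p = 0.0556), in lavages 1 and 2 alone (1.62, adjusted p = 0.162) or when lavages 3 and 4 were left out (0.82, adjusted p = 0.102), Cd68 not in lavages 1 and 2 alone (0.34, adjusted p = 0.551), and Tyrobp not with library totals alone (-0.10, adjusted p = 0.11).

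Pathway partners of the markers were mixed. Of 20 genes around PPAR-gamma and lipid handling 17 were tested, 5 were called higher and 2 lower, with a median of 0.06. The endocytic receptor gene Lrp1 rose by 1.39 ± 0.09, the phosphatidate phosphatase gene Lpin1 by 0.20 ± 0.04 and the lysosomal lipase gene Lipa by 0.25 ± 0.07 on the log2 scale (SE). The Lipa call was lost without lavage 1, 4 or 5 (adjusted p = 0.0566, 0.0636 and 0.0894), in lavages 1 and 2 alone (0.0785) and in lavages 3 to 6 alone (0.0959). Rxra, the gene of the partner receptor of PPAR-gamma, fell by 0.13 but was not called with library totals alone (adjusted p = 0.989). It was also not called without lavage 1, 2 or 4 (adjusted p = 0.0597, 0.0554 and 0.0579) or in lavages 3 to 6 alone (0.195). Gpihbp1, which anchors lipoprotein lipase on endothelium, was at 0 in all 12 libraries. Of 15 scavenger and lectin receptor genes 7 were tested and 1, the beta-glucan receptor gene Clec7a, was called (0.38 ± 0.08), but not in lavages 1 and 2 alone (0.04, adjusted p = 0.921) or when lavages 3 and 4 were left out (0.23, adjusted p = 0.098). The oxidized lipoprotein receptor gene Olr1 had the highest level of that list, 368.5 ± 39.3 and 388 ± 31.2 CPM (SD, n = 6), and was not called (0.08, adjusted p = 0.156), though it was with library totals alone (0.21, adjusted p = 0.00159). Of 13 classical complement and C1q-binding genes 10 were tested, 6 were called higher and 1 lower, with a median of 0.34. The lists share genes: Lrp1 is among these 6 as well, and Olr1, Msr1 and Cd36 also stand in 2 lists. Of all tested genes 3.1% were called higher and 6.72% lower. C1ra, the protease gene whose product binds C1q, rose by 0.49 ± 0.06 on the log2 scale, and C3, the central complement component, by 1.21 ± 0.15 (SE), with C3 means of 6.56 ± 5.72 and 13.9 ± 8.72 CPM (SD, n = 6). Calr, the gene of the C1q-binding protein calreticulin, rose by 0.18 ± 0.05, a call lost without lavage 4 (0.16, adjusted p = 0.0573), in lavages 1 and 2 alone (0.049, adjusted p = 0.77) and without lavages 3 and 4 (0.14, adjusted p = 0.142). Cd93 fell by 0.52, a call lost with library totals alone (-0.39, adjusted p = 0.129), without lavage 1, 3, 4, 5 or 6 (adjusted p = 0.0882, 0.094, 0.0718, 0.149 and 0.153), in lavages 1 and 2 alone (0.856) and without lavages 3 and 4 (0.145).

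**Figure D4:**
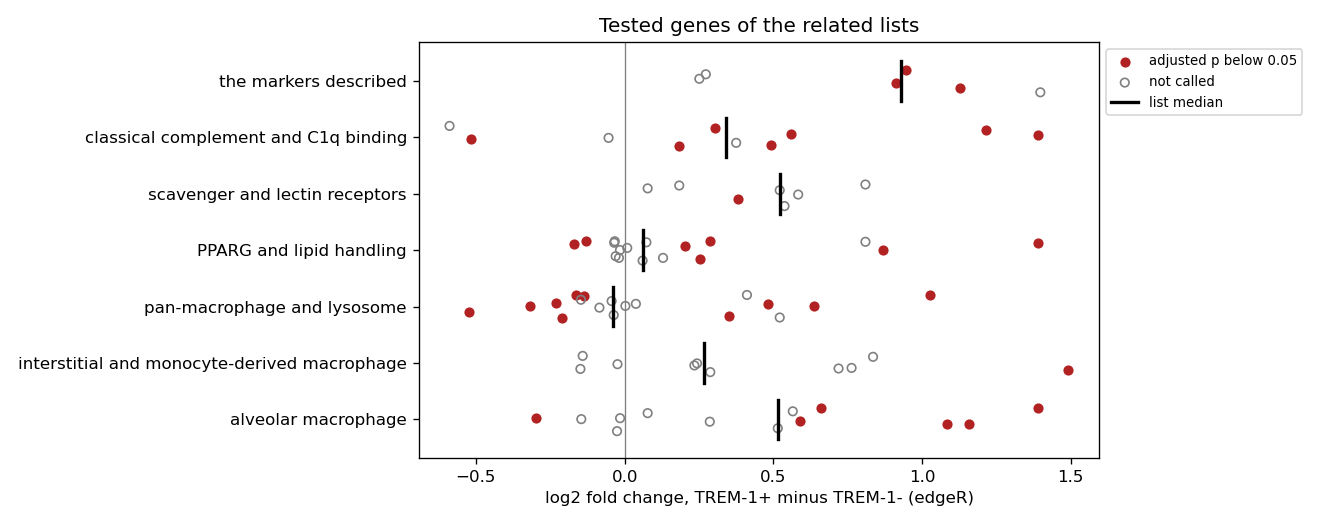
edgeR log2 fold change (x axis, TREM-1+ minus TREM-1-) of each tested gene of the 6 related lists and of the 6 tested markers (rows), filled red where called and open grey where not, with the list median as a black bar. The medians run from -0.04 for pan-macrophage and lysosome genes to 0.93 for the markers.

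Markers of other cell types moved with the fraction as well. For the counts that follow, the shares over all tested genes were 3.1% higher and 6.72% lower. Of 10 tested T cell and innate lymphoid cell genes 7 were called higher and 0 lower. Their summed CPM was 9.60 and 8.78 in TREM-1- and 12.0 and 10.4 in TREM-1+ in lavages 1 and 2. In lavages 3 to 6 it ran from 34.8 to 68.7 CPM in TREM-1- and from 61.3 to 131 CPM in TREM-1+. The sum thus had the lavage arrangement of Mrc1, Lyz2, Lpl and Plet1. Of 9 tested neutrophil genes 7 were higher and 2 lower, and the list summed to 1766 to 2587 and 1464 to 2454 CPM, mostly Retnlg. Of 7 tested monocyte genes 2 were higher and 2 lower (752 to 1364 and 564 to 1167 CPM, mostly Ly6c2), and of 10 tested dendritic cell genes 3 were higher and 0 lower (76.0 to 150 and 104 to 201 CPM). Of 12 eosinophil genes 3 were higher and 6 lower (4958 to 7694 and 4778 to 7288 CPM). Of 2 tested B cell genes and 3 tested epithelial genes 0 were called, and of 3 tested mast cell and basophil genes 1 was. These lists summed to at most 16.1, 95.2 and 64.3 CPM in any library. Elane among neutrophil genes and Tpsb2 and Prss34 among mast cell and basophil genes were at 0 in all libraries. Their part in the differences of the macrophage markers was not tested.

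The 8 genes whose log2 CPM was most like the markers, by the median Pearson r with the 10 markers over the 12 libraries among 16700 genes with a mean of at least 1 CPM, were Fn1, Fabp5, Slc7a2, C3, Agpat3, Cd74, Mmp14 and Ocstamp. Their median r lay between 0.809 and 0.827, and all 8 had an r between -0.21 and -0.02 with Pparg. The 12 libraries share lavages and the split between lavages 1 and 2 and the others, so these values are a description. Fn1, the fibronectin gene, rose by 1.49 ± 0.21 on the log2 scale (SE), with means of 25.9 ± 27.5 and 69.3 ± 65.3 CPM (SD, n = 6), a call lost within lavages 3 to 6 (1.51, adjusted p = 0.127) and when lavages 3 and 4 were left out (1.44, adjusted p = 0.0845). Fabp5, a fatty acid binding protein gene of macrophages, had means of 2.40 ± 2.24 and 4.07 ± 2.95 CPM (0.87 ± 0.24, adjusted p = 0.0157, but 0.0961 without lavage 3, 0.0615 without lavage 6, 0.446 in lavages 1 and 2 alone, 0.0646 in lavages 3 to 6 alone and 0.172 without lavages 3 and 4). Agpat3, a lipid acyltransferase gene, was low, with means of 0.816 ± 0.922 and 2.50 ± 2.17 CPM, and rose by 1.90 ± 0.41 (adjusted p = 0.00133). DESeq2 gave no adjusted p for Agpat3, and it did not pass the filter in lavages 1 and 2 alone. Cd74, the invariant chain gene of MHC class II, measured 16.3 ± 15.8 and 29.4 ± 23.2 CPM (0.89 ± 0.20, adjusted p = 0.0234, but 0.076 without lavage 2, 0.157 without lavage 3, 0.0667 without lavage 4, 0.756 in lavages 1 and 2 alone and 0.378 without lavages 3 and 4). Mmp14 and Ocstamp were not called (adjusted p = 0.302 and 0.185).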

How the data were processed

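Per the labels' protocols, total RNA of the sorted cells went through ribosomal RNA removal and a strand-preserving library kit, with 100 bp paired-end sequencing in 1 lane. kallisto 0.45.0, R 4.3.0, edgeR 3.42.4 and GRCm39 appear in the submitters' processing notes, with no role given. The authors deposited an estimated count for each gene, in whole numbers, and a log2 CPM table of 17934 genes; the latter was recomputed from the counts to within 5e-09, does not hold Marco or the C1q genes, and was not used further. The use of strand in counting is unknown here.

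The counts were fitted with edgeR 4.0.16 under R 4.3.3 (TMM, filterByExpr with minimum count 10 and minimum total 15, robust quasi-likelihood F test, Benjamini-Hochberg over all genes tested), with lavage as a block, since the design text says that both fractions came from 1 lavage. Deviations from the fraction means correlated within pairs at 0.127 to 0.502. Log2 CPM differences used a prior count of 1, and SEs come from the F statistic. The test was checked on simulated data. Alternatives were DESeq2 1.42.0, limma-voom (limma 3.58.1), library totals, no filter, no block and left-out lavages.

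The named genes are the 10 markers, up to 3 called genes of smallest p in each direction and the most abundant gene of each related list, and the 8 genes most like the markers; lists of other cell types are given by counts and sums. Some list genes that this rule selects are not reported here. Genes at or near 0, Ccr3, Siglecf, Epx, Prg2, Alox15, Ear6, Lyz1 and Plet1os were named after their values were seen. The markers, lists and alternatives were chosen with earlier results of these data known. No sample column went unused (0).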

Additional observations from a re-analysis of the deposited data

Results flagged for a closer look

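Each marker was screened in each fraction and for its paired difference, 30 groups of 6 values, for a highest or lowest value far from the rest by Dixon's criterion. For independent values of normal spread the criterion flags about 1 in 20 groups. These groups hold values of 0 and share lavages, so that rate need not apply to them. In all 7 were flagged, of which 5 concern genes with few counts. The Lpl difference of lavage 3 was low, at -0.93 in log2 CPM, and the Plet1 difference of that lavage high, at 2.59. In TREM-1+ libraries C1qb was high in lavage 3, at 3.39 CPM. In TREM-1- libraries C1qa and C1qb were high in lavage 5, at 0.869 and 0.760 CPM, and Marco was high in lavage 4, at 0.329 CPM, the other 5 libraries being at 0. The Marco difference of lavage 5 was high, at 2.67, and rests on 5 counts against 0. The causes were not tested.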

How the results depend on the processing

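Without the replicate block that pairs the fractions of a lavage, 83 genes in place of 1797 and 0 of the 6 tested markers in place of 3 were called. In lavages 3 to 6 alone 1168 genes were called. With no filter on low counts 5 markers were called, C1qb and Mrc1 being added. The edgeR adjusted p of Mrc1 went from 0.0829 to 3.81e-15 there at a size of 1.40 in both fits. Neither that p nor the no-filter p of C1qb is read as a smaller spread among lavages. Leaving out 1 lavage at a time gave 1421 to 1588 genes and 2 to 5 markers, the 5 without lavage 2 (Mrc1 and C1qb added). C1qb entered that count by passing the filter through its TREM-1+ libraries, where it was high. In every alternative run the fitted log2 fold changes of the 6 tested markers stayed above 0: 0.77 to 1.07 for Pparg, 0.75 to 1.69 for Lyz2, 1.08 to 1.79 for Mrc1, 0.45 to 1.19 for Plet1, 0.11 to 0.50 for Lpl and 0.023 to 0.79 for Apoe. Pparg lost its call without the block alone (adjusted p = 0.0776). Directions of 4 uncalled list genes turned. With library totals alone Cd79a became 0.053, Il1rn 0.11 and Ncor1 0.093. Il1rn ran from -0.029 to 0.0068 with 1 lavage left out and was 0.016 in lavages 3 to 6 alone, and Muc5b was -0.013 with limma-voom and -0.041 without the block. The cause was not tested. Prior counts of 0.25 and 5 moved the mean paired difference of each of the 10 markers by less than its SD over lavages. Depth limits Marco and the C1q genes, whose libraries at 0 allow up to 0.308 CPM.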

Other observations

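Genes often used to mark macrophages were at very different levels in these gated cells. Adgre1, the F4/80 gene, had means of 983 ± 194 CPM in TREM-1- libraries and 875.5 ± 157 CPM in their TREM-1+ partners (SD, n = 6). It was called lower in TREM-1+ (log2 fold change -0.16 ± 0.03, SE, edgeR adjusted p = 0.000337) and was higher there in 0 of 6 pairs. That change is close in size to the 0.13 by which library totals moved the median gene. The call of Adgre1 with that scaling is not reported here. The genes that follow were not called. Itgax, the CD11c gene, stood at 908 ± 53.9 and 895 ± 103 CPM, and Csf1r, the receptor gene of macrophage colony-stimulating factor, at 220 ± 27.2 and 215 ± 24.3 CPM. Fcgr1, a high-affinity Fc receptor gene, was lower, at 17.7 ± 3.01 and 16.1 ± 3.58 CPM, as were the receptor kinase gene Mertk, at 13.6 ± 4.04 and 13.5 ± 3.28 CPM, and the scavenger receptor gene Msr1, at 1.42 ± 0.85 and 1.87 ± 0.76 CPM. These 6 genes were chosen after their values were seen.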
